A study of Mus musculus with 4 samples.

Results

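The Irf4 tile on chromosome 13 and a tile on chromosome 14 were the regions examined on a mouse tiling array of nuclear RNA. They were chosen because earlier work on these data had found little signal there, so their low signal is given as a description and not as a test. The members are all probes, control spots left out, whose position on mm9 lies in chr13:30830001-30865000 or chr14:46670001-46730000. This gave 752 of 48316 probes, 279 in the Irf4 tile and 473 in the chromosome 14 tile. A tile is a stretch whose probes leave no gap wider than 50 kb, and these 2 are among the 39 tiles of the array. The Irf4 probes cover chr13:30838525-30858892, a span of 20.4 kb. The chromosome 14 probes cover chr14:46679104-46722265, a span of 43.2 kb.

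The study compared nuclear RNA of mouse embryonic stem cells (ESC) and neural progenitor cells (NPC) over a region around Shh, and the array carries further tiles on other chromosomes. ESC were cells of the 46c line, a mouse line whose fluorescent reporter lights up on neural commitment, grown in GMEM with supplement. NPC were 46c cells differentiated with the N2B27 protocol, a serum-free neural differentiation. Each group had 2 samples, with 1 array each, and all 4 shared the 46c line, the preparation of chromatin from nuclei without RNase A, the amplification and the Cy3 label. All cells therefore came from 1 line, and no label gives a time of differentiation. Because cDNA was labelled by random priming, RNA of both strands gave the same signal. Whether the samples of a group came from separate cultures is not given, so a p-value here covers the spread between the hybridised samples alone, and that spread may be technical.

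Irf4 encodes a transcription factor of the interferon regulatory factor family. It is known for its part in lymphoid cells, where it acts in plasma cell formation, immunoglobulin class switching and the differentiation of activated T cells. It is not known as a neural progenitor gene. The chromosome 14 tile lies on the side of Bmp4, which encodes a secreted signalling protein of the BMP family that holds back neural differentiation of ESC. In nuclear RNA, a transcribed gene gives signal over its introns as well as its exons, because unspliced transcripts are included. The labelled cell types were not checked against marker genes, since without an annotation on mm9 no gene but Irf4 was assigned to a tile.

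The Irf4 promoter is printed because signal of the Irf4 tile was dense near the given start of the gene. The sequence is from RefSeq, the 250 bases before the start of Irf4 on the plus strand of GRCm38.p6, chr13:30748983-30749232, a build other than that of the array, so no probe was placed on it.

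Irf4 promoter: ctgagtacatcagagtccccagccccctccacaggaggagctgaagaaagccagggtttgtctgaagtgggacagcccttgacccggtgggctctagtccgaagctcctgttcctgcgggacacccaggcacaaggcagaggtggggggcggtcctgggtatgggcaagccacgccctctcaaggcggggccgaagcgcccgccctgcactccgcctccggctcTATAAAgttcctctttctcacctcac

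The capitals mark the letters TATAAA, searched on both strands as TATAAA or TTTATA. They occurred once, starting 26 bases before the start of the gene. Of 32851 promoters of the same length in the table, 12.4% held these letters. The GC content of the Irf4 stretch was 63.6%, against a median of 52.4% over all promoters, and it held 11 CpG dinucleotides, against a median of 6. These are features of the sequence alone and no RNA value was tied to them. No probe sequence and no genome of the array's build was used here, so nothing is printed for the chromosome 14 tile.

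Most positions of both tiles gave no signal that the scanner program marked as well above background. In the Irf4 tile the marked share was 33.0% and 35.1% of the probes in ESC 1 and ESC 2, and 28.4% and 34.1% in NPC 1 and NPC 2. The ESC arrays had 34.1% ± 1.52 and the NPC arrays 31.2% ± 3.98 (SD, n = 2 each), so the groups overlapped. In the chromosome 14 tile it was 18.3% and 20.3% in ESC 1 and ESC 2, and 18.8% and 22.2% in NPC 1 and NPC 2. The ESC arrays here had 19.3% ± 1.44 and the NPC arrays 20.5% ± 2.46 (SD, n = 2 each), and again the groups overlapped. On the same arrays, 1.93% ± 0.50 of the 660 negative control spots were marked (SD, n = 4), so both tiles lay above the control spots on every array. Fewer cells that transcribe a region and less RNA per cell cannot be told apart in such bulk samples.

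The chromosome 14 tile had the lowest share of all 39 tiles on each of the 4 arrays. The Irf4 tile was the second lowest in both NPC arrays but only the fifth lowest in both ESC arrays. The tiles between them in ESC lay on chromosome 12 (24.3% and 25.3% in ESC 1 and ESC 2), on chromosome 7 (26.7% and 30.3%) and on chromosome 15 (29.5% and 30.5%). In NPC 1 and NPC 2 these reached 75.2% and 67.6% on chromosome 12, 40.6% and 44.2% on chromosome 7, and 38.7% and 36.8% on chromosome 15. Over all probes outside the Irf4 and chromosome 14 tiles, the marked share went from 43.7% ± 1.50 (ESC) to 54.6% ± 0.0405 (NPC; SD, n = 2 each). The chromosome 12 tile alone holds 9836 of these 47564 probes, so it weighs on this rise. As the tiles were chosen for little signal in these same data, these ranks describe them and do not test the label quiet. The rank of the Irf4 tile differed between the groups although its own marked shares overlapped. The 3 further tiles that lay below it in ESC had higher shares in NPC. With 2 arrays against 2, no exact permutation test of such a share can go below p = 0.33.

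**Figure D1:**
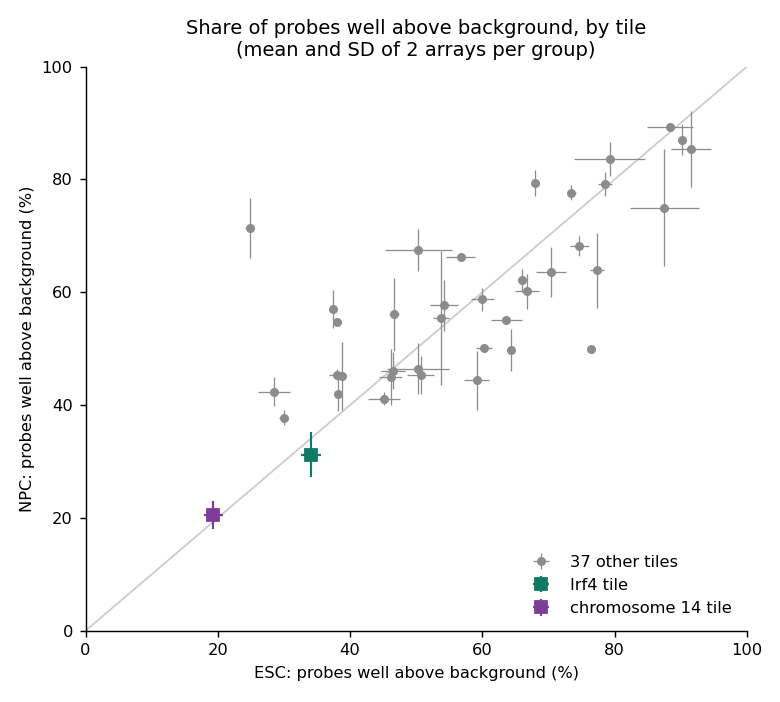
Share of probes marked well above background in each of the 39 tiles, ESC on the horizontal axis and NPC on the vertical axis, both in percent. Points are means and bars SDs of 2 arrays; the Irf4 tile (34.1% and 31.2%) and the chromosome 14 tile (19.3% and 20.5%) lie close to the diagonal, at the low end.

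The other tiles of chromosomes 13 and 14 had higher marked shares, but none adjoined the quiet tiles. The other 2 tiles of chromosome 13 lie at chr13:29038235-29052781 and chr13:63595947-63679023. They had marked shares of 68.0% and 78.6% in the ESC mean, and 79.4% and 79.2% in the NPC mean. The array has no probes between them and the Irf4 tile, so the surroundings of that tile were not measured. The only other tile of chromosome 14, which begins 276 kb beyond the last probe of the quiet one, had 64.4% in ESC and 49.8% in NPC.

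Spots below the sensitivity of the scan were set by the scanner program to a lowest value of the array, called the floor here, at intensities of 2.70, 3.12, 2.79 and 2.19 for ESC 1, ESC 2, NPC 1 and NPC 2. In the chromosome 14 tile, 59.1%, 59.3%, 58.4% and 57.0% of the probes sat at the floor, in the same order, so the median probe was at the floor on every array. In the Irf4 tile, 40.1%, 34.8%, 41.7% and 39.4% of the probes sat there. Its median intensities were 5.43, 7.49, 4.88 and 4.89, above the floor but below the dimmest spot marked well above background on the same array (13.57, 15.72, 14.04 and 11.02). Among the other probes of the array the share at the floor was 33.6%, 32.7%, 24.9% and 25.1%. Among the negative control spots it was 93.5% ± 0.45 (SD, n = 4), so even the chromosome 14 tile held many more spots above the floor than control spots did.

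The lists of probes marked in ESC and in NPC shared most of their members. In the Irf4 tile, 81 probes were marked on both ESC arrays, 70 on both NPC arrays and 65 on all 4, which is 80.2% of the ESC list and 92.9% of the NPC list. In the chromosome 14 tile the counts were 73, 66 and 56, which is 76.7% of the ESC list and 84.8% of the NPC list. Over all other probes the shared part was 82.9% of the ESC list and 68.0% of the NPC list, so the tiles' shares lay below it for ESC and above it for NPC. The other probes, here and below, include the 9836 of the chromosome 12 tile, whose marked share rose in NPC. At the other end, 155 probes of the Irf4 tile (55.6%) and 324 of the chromosome 14 tile (68.5%) were marked on none of the arrays, against 32.5% of the other probes. The order of intensities over the probes of a tile was also alike. Spearman's rho over the 279 Irf4 probes was 0.81 between the ESC arrays, 0.78 between the NPC arrays and 0.73 to 0.80 between arrays of different groups. Over the 473 chromosome 14 probes it was 0.75, 0.70 and 0.68 to 0.78. Outside both tiles the arrays of different groups were less alike (0.65 to 0.67) than those of the same group (0.87 in ESC and 0.83 in NPC). These coefficients are descriptions over probes, which share the array, the labelling and each probe's own affinity, and probes are not independent replicates.

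Signal in the Irf4 tile was not spread evenly. The region's definition gives Irf4 as lying near chr13:30841000-30859000, and the probes from this start onward were denser in signal at its 5' end. In the first 2.5 kb of that span, 20, 23, 20 and 20 of the 33 probes were marked on ESC 1, ESC 2, NPC 1 and NPC 2, or 60.6%, 69.7%, 60.6% and 60.6%. In the probes before the start, also 33, the shares were 27.3%, 30.3%, 21.2% and 21.2%. In the 213 probes of the rest of the gene span they were 29.6%, 30.5%, 24.5% and 31.9%. The 5' end was thus the highest of these segments on each array, in ESC and NPC alike. The rest was itself uneven. Its last 11 probes, from 30858001 on, had shares of 45.5%, 54.5%, 45.5% and 63.6%, above the 5' end on NPC 2. The length of the 5' segment was chosen after the values had been seen, and no test was made of it.

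Short runs of signal lay at this end and further into the gene span. A run is at least 3 neighbouring probes marked on both arrays of a group. ESC had 6 such runs in the Irf4 tile, with 22 of the 279 probes (7.89%), and NPC had 4, with 15 probes (5.38%). In the other tiles, 21.6% of the probes lay in runs in ESC and 30.7% in NPC. The ESC runs of 5 probes were chr13:30840773-30841072, which spans the given start of Irf4, and chr13:30842399-30842777. The ESC runs of 3 probes were chr13:30841859-30842038, chr13:30842904-30843259, chr13:30844552-30844731 and chr13:30846887-30847066. NPC shared chr13:30842399-30842777 and chr13:30842904-30843259 exactly, had 4 probes of the run at the start (chr13:30840833-30841072), and had a run of 3 at chr13:30845349-30845528.

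Levels are given as log2 intensity minus the 75th percentile of the array's probes that were well above background on all 4 arrays. A level of 0 is thus that percentile, and most of these well-detected probes lay below it. In the run at the start of Irf4, the mean level was -1.18 and -0.65 in ESC 1 and ESC 2, and -1.04 and -1.61 in NPC 1 and NPC 2, and the groups overlapped. Over chr13:30842399-30842777 the ESC arrays gave -1.75 and -1.79, and the NPC arrays -2.41 and -2.32. Over chr13:30842904-30843259 the ESC arrays gave -0.55 and -0.28, and the NPC arrays -1.19 and -1.85. Both latter runs were lower on each NPC array than on each ESC array. Since runs were chosen by these same probes, no test was made of them.

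The brightest single probes of the Irf4 tile were of moderate intensity. The probe at chr13:30853475-30853534, inside the gene span, gave 480, 413, 374 and 494 on ESC 1, ESC 2, NPC 1 and NPC 2. At chr13:30840833-30840892, just before the given start, the intensities were 297, 368, 354 and 384. At chr13:30840953-30841012 they were 295, 443, 341 and 281. On the scaled levels, ESC and NPC overlapped for the first and second of these. The third stood at 1.003 and 1.269 in ESC 1 and ESC 2, and lower, at 0.862 and 0.645, in NPC 1 and NPC 2. No Irf4 probe passed an intensity of 1000 on any array.

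**Figure D2:**
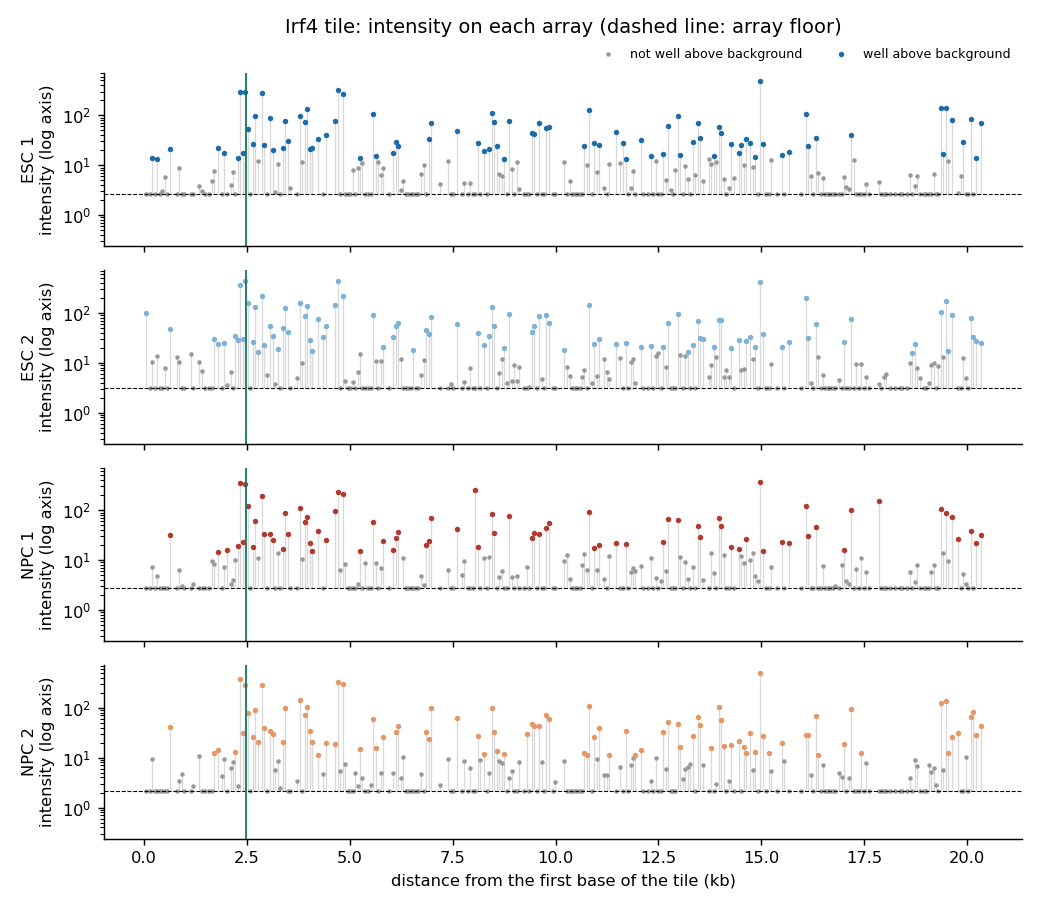
Intensity (log axis) of the 279 Irf4 probes on each array against the distance from the first base of the tile in kb; coloured points are marked well above background, grey points are not, the dashed line is the array's floor and the vertical line the given start of Irf4. Marked probes crowd just after that line on all 4 arrays, and no probe reaches 1000.

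The chromosome 14 tile held a single run of marked probes, and it was among the brightest sites of the whole array. The run, chr14:46703067-46704594, had 15 probes and was the same in ESC and NPC. It held 3.17% of the probes of the tile. Of these, 14 formed a core of 840 bases, chr14:46703755-46704594, and the first probe lay 688 bases before the core with intensities of 86.1, 119, 60.7 and 100.2. The median intensity of the core was 9644, 10921, 7057 and 9918 on ESC 1, ESC 2, NPC 1 and NPC 2. Of its 14 probes, 12, 12, 12 and 11 passed an intensity of 1000, as did 0.84%, 1.11%, 0.97% and 1.18% of the array's probes. The core gave 11, 12, 11 and 9 of the 100 brightest probes of each array. The tile with the lowest share of marked probes thus held some of the brightest probes.

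Most probes on either side of the block were unmarked. On its left, beyond the single marked probe 688 bases away, the 20 nearest probes had median intensities of 2.70, 3.12, 3.32 and 2.32, and 3, 3, 4 and 3 of them were marked. On its right no probe was placed for 1477 bases, so neither edge is resolved to the spacing of the probes. The 20 probes after this gap had medians of 6.26, 4.54, 4.12 and 4.28, with 6, 8, 4 and 7 marked. The right flank thus held more marked probes than the left on ESC 1, ESC 2 and NPC 2, and as many on NPC 1.

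The brightest probe of the block by its mean level, chr14:46704115-46704174, gave 14907, 15210, 13468 and 18291. The next, chr14:46704415-46704474, gave 10773, 14082, 9730 and 16105. The third, chr14:46704355-46704414, gave 10106, 11471, 8751 and 14975. In all 3 NPC 1 was the lowest and NPC 2 the highest, so the NPC arrays enclosed both ESC arrays. No probe of either tile was saturated.

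The mean level over the run was 4.77 and 5.07 in ESC 1 and ESC 2, and 3.81 and 4.28 in NPC 1 and NPC 2, which gives 4.92 ± 0.22 for ESC and 4.05 ± 0.34 for NPC (SD, n = 2 each). The groups did not overlap, but single spots bore on this. NPC 2 was low at 3 core probes, those starting at 46703875 (2307), 46703935 (366) and 46704175 (733), where the dimmest of the other arrays gave 10824, 10850 and 10205. The 10824 came from an NPC 1 spot that was marked as an outlier. In the core, the scanner program marked 2, 1, 2 and 1 spots as outliers on ESC 1, ESC 2, NPC 1 and NPC 2, and the levels leave those out. As the run was found from these same values, the difference was not tested.

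**Figure D3:**
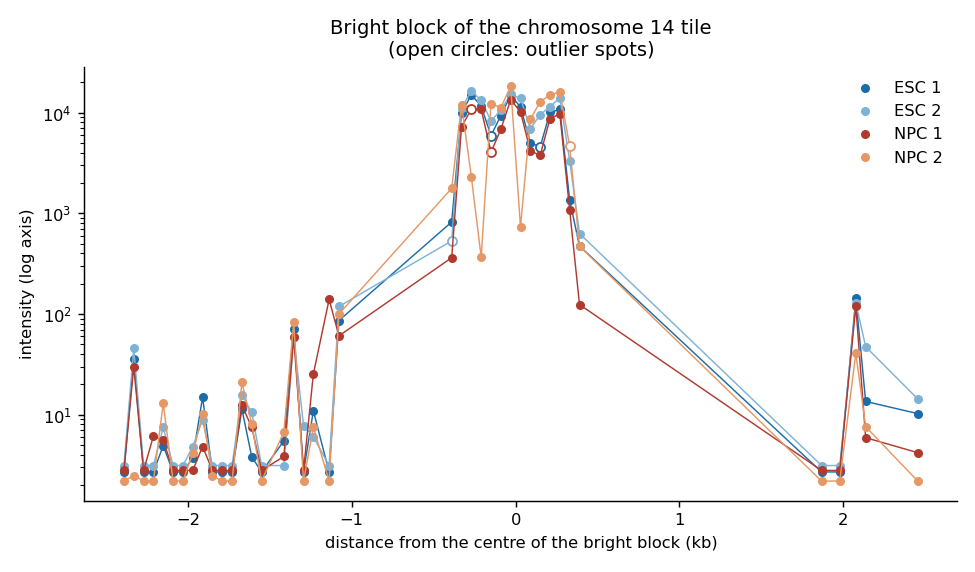
Intensity (log axis) of the bright block and its flanks on each of the 4 arrays, against the distance from its centre in kb; open circles are spots marked as outliers. The core of 14 probes reaches 13468 to 18291 at its peak, and 3 of its probes are low on NPC 2 alone.

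What is transcribed at the block was not determined. In the RefSeq gene order, 10 genes lie between the protein-coding Ddhd1, a phospholipase gene, and Bmp4. They are 4 pseudogenes (Gm7206, Gm8317, Gm46475 and Gm6580), the transcribed pseudogene Ubb-ps, named for the polyubiquitin gene Ubb, 4 long noncoding RNA genes (Gm34360, A530076I17Rik, Gm34499 and Gm15217) and the microRNA gene Mir5131. That table is on another build than the array, so it gave the order only, and which of these genes, if any, lies at the block was not determined. Without the probe sequences, whether RNA of a similar sequence elsewhere in the genome can bind these probes was not tested. For Irf4 the neighbours in that order are Dusp22, a phosphatase gene, and Exoc2, an exocyst subunit gene.

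Outside the block, isolated probes of the chromosome 14 tile were bright on all 4 arrays. The examples here were chosen after their values were seen. The probe starting at 46708258 gave 2255, 2439, 1564 and 1458 on ESC 1, ESC 2, NPC 1 and NPC 2, and both NPC arrays lay below both ESC arrays. That starting at 46684229 gave 601, 646, 777 and 537, and that starting at 46680716 gave 381, 441, 526 and 626. None of these lay in a run.

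Signal varied along the tile on both sides of the block. In the 5 kb window from 46710001, the marked share was 5.08%, 6.78%, 6.78% and 6.78% of 59 probes, the lowest of the 10 windows. In the window from 46680001 it was 30.4%, 23.9%, 23.9% and 28.3% of 46 probes. In the window that holds the block, from 46700001, it was 31.6%, 32.8%, 33.3% and 37.9% of 59 probes. Just before it, in the window from 46695001, it was 9.84%, 16.4%, 11.7% and 14.8%. Just after it, in the window from 46705001, it was 25.5%, 29.2%, 25.0% and 31.2%. The marked share thus did not fall steadily with distance from the block.

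**Figure D4:**
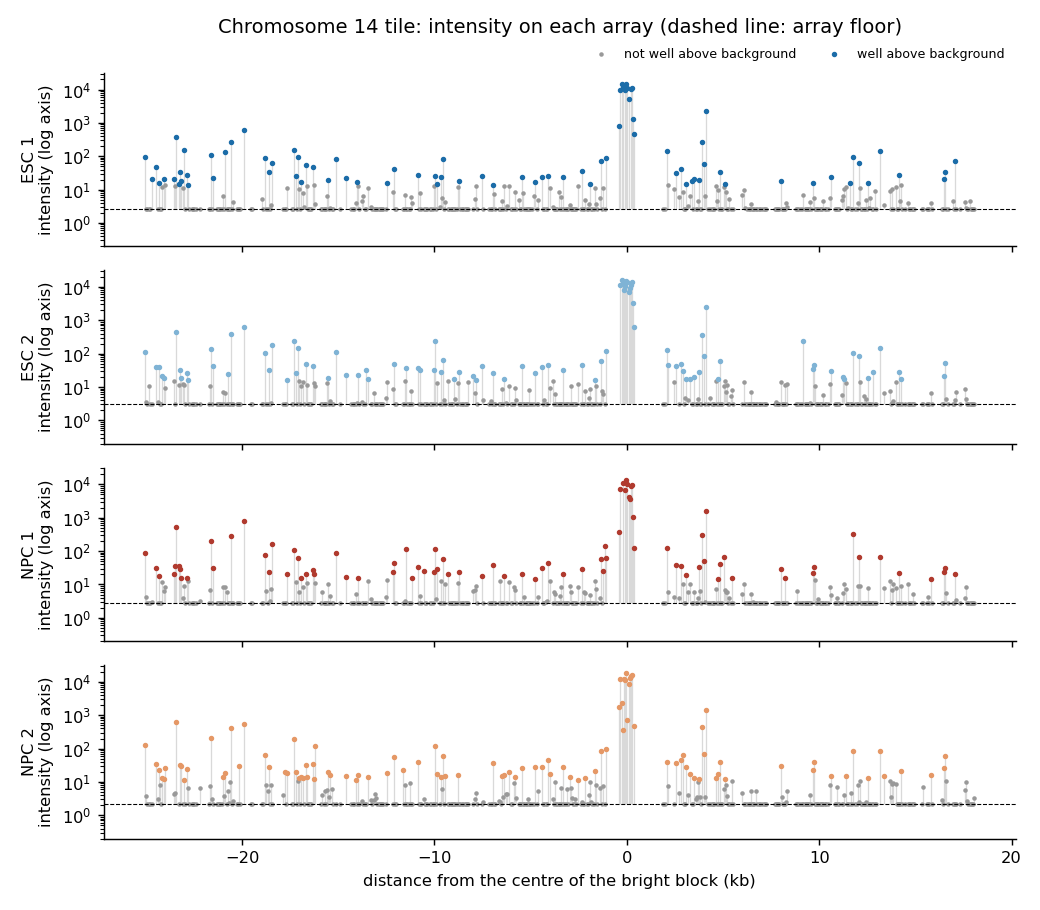
Intensity (log axis) of the 473 chromosome 14 probes on each array against the distance from the centre of the bright block in kb; coloured points are marked well above background, grey points are not, and the dashed line is the array's floor. Apart from the block and scattered single probes, most points lie on the floor on all 4 arrays.

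The comparison of ESC and NPC asks whether nuclear RNA of these regions changed with neural differentiation. Scaled to well-detected probes, both tiles were slightly lower in NPC, by about the amount by which the floor itself was lower. The floor moved by -0.39 on the log2 scale, from -5.77 and -5.88 in ESC to -6.07 and -6.36 in NPC. Of the 15 windows of 5 kb, 3 fell, against 29.3% of all windows of the array, and none rose, against 22% (limma, with none higher at an unadjusted p under 0.05 either). Of 743 tested probes, 1 rose, against 10.7% of all probes, which include those of the raised chromosome 12 tile. Because the tiles were chosen for little signal in these same data, that choice limited how far they could rise in NPC. The lack of rises is therefore a description and not a test. Measured from each array's own floor, which is also the median of its negative control spots, neither tile passed the test. With 1 common floor set for all arrays, the Irf4 tile fell by 0.30 (limma, adjusted p = 0.0290), and the chromosome 14 tile did not pass. The median change over the 39 tiles was then -0.29, and 21 of them were called lower.

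The mean level of the Irf4 tile was -4.15 and -4.13 in ESC 1 and ESC 2, and -4.57 and -4.63 in NPC 1 and NPC 2. The groups did not overlap, and the tile fell by 0.46 (SE 0.07, limma, adjusted p = 0.00721 over 39 tiles). For the chromosome 14 tile the ESC arrays gave -4.61 and -4.63, and the NPC arrays -4.91 and -5.07. It fell by 0.37 (SE 0.09, limma, adjusted p = 0.0222). These calls say little about the 2 tiles in particular, since 51.3% of all tiles were called lower and 10.3% higher. The tiles were also chosen for little signal in these same data. The p-values of falls in them, here and below, do not stand apart from that choice. The median change over the 39 tiles was -0.37, and in the order from the most lowered to the most raised the Irf4 tile was the 16th and the chromosome 14 tile the 20th.

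Expressed as the mean log2 distance above the array's floor, the Irf4 tile stood at 1.63 and 1.75 in ESC 1 and ESC 2, and at 1.50 and 1.73 in NPC 1 and NPC 2. Here the groups overlapped (ESC 1.69 ± 0.09, NPC 1.62 ± 0.16, SD, n = 2 each). The chromosome 14 tile stood at 1.16 and 1.25 in ESC, and at 1.16 and 1.29 in NPC, which also overlapped (1.21 ± 0.06 and 1.23 ± 0.09). All other probes together stood at 2.20 and 2.31 in ESC, and at 2.81 and 2.85 in NPC. The chromosome 12 tile, with 9836 of these 47564 probes, was the most raised of all tiles and weighs on that difference. Measured from the floor, the median change over the 39 tiles was 0.02. When the median of the negative control spots, which lay at the floor, was set to 0, the change was -0.07 for the Irf4 tile (SE 0.15, limma, adjusted p = 0.761) and 0.02 for the chromosome 14 tile (SE 0.14, limma, adjusted p = 0.942). The call of both tiles was thus lost under this scaling, and for the chromosome 14 tile the direction turned. Without ESC 1 or without ESC 2, the change of the Irf4 tile was about as large (-0.47 and -0.46) with adjusted p of 0.0946 and 0.100. That of the chromosome 14 tile was -0.36 and -0.39 with adjusted p of 0.151 and 0.147. Under these settings only 4 and 3 of the 39 tiles were called lower at all, against 20 with all arrays.

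In the Irf4 tile, 2 of 5 windows were called lower in NPC, set against the 29.3% of all 964 windows, and none higher. The window from 30835001, which lies before the given start and has 19 probes, had levels of -5.17 and -4.67 in ESC 1 and ESC 2, and -5.69 and -5.80 in NPC 1 and NPC 2. It fell by 0.82 (SE 0.21, limma, adjusted p = 0.0352), with 15.8% and 10.5% of its probes marked in ESC and 5.26% on both NPC arrays. The window from 30850001, inside the gene span, had levels of -3.91 and -4.05 in ESC, and -4.60 and -4.49 in NPC. It fell by 0.57 (SE 0.14, limma, adjusted p = 0.0322), while 39.1% and 37.7% of its probes were marked on the ESC arrays and 26.1% and 40.6% on the NPC arrays. In both windows the levels of the groups did not overlap, but the marked shares of the second did. Without ESC 1 or without ESC 2, limma called none of the 964 windows of the array (131 and 113 were lower, and 186 and 182 higher, at an unadjusted p under 0.05). The change of the first of these windows was then -1.07 and -0.57, and that of the second -0.49 and -0.64. Without NPC 1, 4 of the 5 Irf4 windows were called lower, as were 432 of the 964.

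The window from 30840001, which holds the given start of Irf4, had the highest level of the Irf4 windows in both groups. It stood at -3.54 and -3.48 in ESC 1 and ESC 2, and at -3.87 and -4.03 in NPC 1 and NPC 2, with 45.7%, 51.4%, 46.4% and 45.7% of its probes marked. Its change of -0.44 did not pass the test (SE 0.14, limma, adjusted p = 0.0522). The changes of the remaining Irf4 windows, from 30845001 and from 30855001, were -0.42 and -0.28 and did not pass the test. The median change of the 5 windows was -0.44.

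In the chromosome 14 tile, 1 of 10 windows was called lower, and none higher. This was the first window, from 46675001, with only 12 probes. Its levels were -4.36 and -4.41 in ESC 1 and ESC 2, and -4.91 and -4.78 in NPC 1 and NPC 2, a fall by 0.46 (SE 0.13, limma, adjusted p = 0.0445). Without ESC 1 or without ESC 2, when no window of the array was called, its change was -0.43 and -0.49. Without NPC 1, 6 of the 10 windows were called lower, beside the 432 of all 964. The window with the bright block had the highest level in both groups, -2.81 and -2.65 in ESC, and -3.09 and -3.03 in NPC. Its change of -0.33 did not pass the test (SE 0.14, limma, adjusted p = 0.0982). The other 8 windows changed by -0.43 to -0.29, with none past the test, and the median over the 10 was -0.38. These changes lay within a narrow range around that of the floor.

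**Figure D5:**
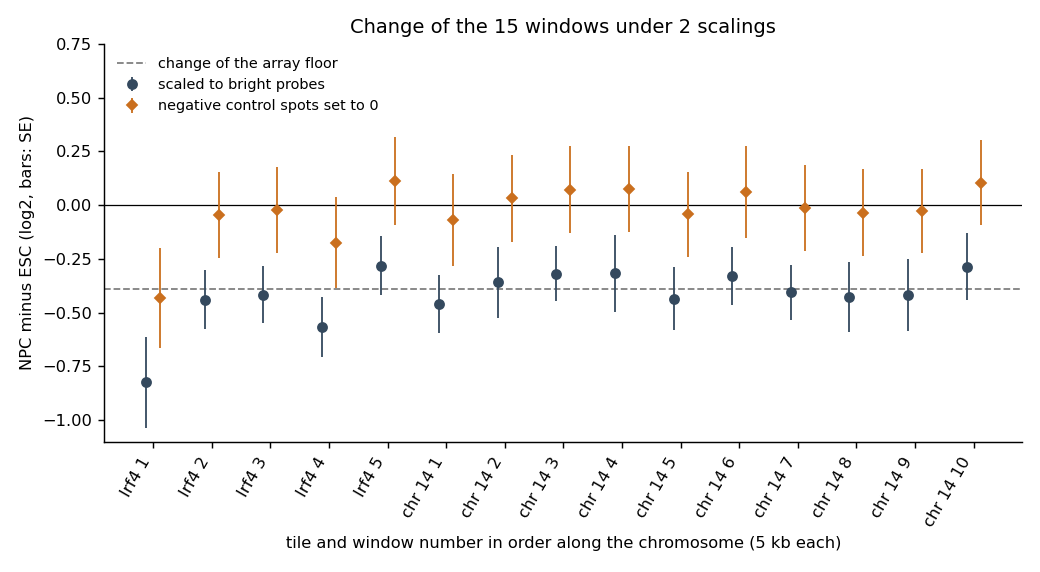
Change of the 15 windows, NPC minus ESC on the log2 scale with SE bars, in order along each tile; circles are scaled to well-detected probes and diamonds to negative control spots. The circles scatter around the change of the floor (dashed line, -0.39), and the diamonds around 0 except the first Irf4 window.

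Single probes changed rarely. Of 743 probes tested in both tiles, 5 were called lower in NPC, against 1.58% of all 47900 probes tested, and 1 was called higher, against 10.7%. As the tiles were chosen for little signal, the low number of rises is a description. The 743 are 278 Irf4 probes and 465 chromosome 14 probes that no array marked as outliers. The probe called higher, chr13:30858289-30858348, lies at the far end of the given Irf4 span. Its intensities were 2.81 and 3.12 in ESC 1 and ESC 2, and 27.0 and 31.2 in NPC 1 and NPC 2. It was not well above background on either ESC array and was at least 1.78-fold higher in NPC (limma, adjusted p = 0.0118), counted from the dimmest level that was marked in ESC.

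The 5 probes called lower were marked on none of the arrays, so no fold is given for them. In the Irf4 tile they start at 30838989, 30845289 and 30852402, and in the chromosome 14 tile at 46681062 and 46692926. The one at 30852402 had intensities of 11.4 and 12.96 in ESC 1 and ESC 2, and 2.79 and 2.92 in NPC 1 and NPC 2. All 5 were below the dimmest marked spot of their array on each of the 4 arrays. Without NPC 1, 40 of the 743 were called lower and 11 higher, beside 3467 and 6277 of all 47900 probes.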

How the data were processed

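Nuclear RNA of 2 ESC and 2 NPC samples was hybridised to 1-colour custom tiling arrays with 60-base probes. Per the labels' protocols, RNA was amplified with the WTA2 kit and Cy3 was added by random priming. The deposited scanner files give spot intensity, which Agilent Feature Extraction 11.5.1.1 had background-subtracted and floored, per the file headers. The same files hold that program's yes or no marks (unit other), per the file headers. The authors' deposited series table, log2 as judged from its values, served as an alternative, and the submitters' processing notes name limma. Its ESC 1 values did not follow the ranks of that array's scanner file, so results with the authors' values are less certain. All 4 arrays lay on 1 slide with 1 scan. Their number limits the precision.

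Control spots (3188) were left out. Outlier spots were left out of levels and marked shares, but kept in runs, lists of shared probes, Spearman's rho and the intensities of the bright block. Levels are log2 intensity minus a scaling value per array (its 75th percentile among the 15356 probes that every array marked as well above background), averaged in 5 kb windows of at least 5 probes (964 windows) or tiles. Group was tested with limma 3.58.1 (R 4.3.3) across all windows, tiles or probes, with Benjamini-Hochberg adjustment and calls at an adjusted p under 0.05. The window test alone was checked on simulated data, which were drawn around the window means without a floor. The tile and probe tests were not checked in this way. The files hold median and not mean spot signals, so normexp used the median. Figures used matplotlib 3.10.9 in Python 3.11.15.

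Members, lists and alternatives were chosen with earlier results of these data known. Named positions are all runs (at most 6 by size), the 3 brightest probes marked on all arrays, and all windows of each tile. Promoter letters came from RefSeq, where 1 of 1 gene matched. Alternatives covered scaling, floor, background, window size, marks and each array left out. Choices made after seeing values are named as such.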

Additional observations from a re-analysis of the deposited data

How the results depend on the processing

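The number of calls in both tiles moved with the scaling, and leaving out an ESC array removed the window calls of the whole array. Counts with the authors' values carry the mismatch in ESC 1 named above. Windows called lower, 2 in the Irf4 tile and 1 in the chromosome 14 tile, became respectively 4 and 5 with the authors' values, 0 and 0 with a common floor, 1 and 0 with medians over probes, 0 and 0 with negative controls at 0, 5 and 10 with all probes in the percentile, 4 and 5 with a trend prior, and 1 and 0 with windows of 2 kb. Normexp gave 1 in the Irf4 tile. Leaving out dim probes gave 2 and windows of 10 kb gave 2 in the chromosome 14 tile. Leaving out 1 array gave 0 to 4 and 0 to 6. The lower calls over the whole array moved as well. They were 282 of 964 windows in the main setting, 445 with the authors' values, 128 with a common floor and 148 with medians over probes. They numbered 76 with negative controls at 0, 622 with all probes in the percentile, 336 with a trend prior and 353 with normexp. Windows of 2 kb gave 334 of 2272, windows of 10 kb gave 218 of 505, and leaving out dim probes gave 253 of 917. No window of either tile was called higher under any alternative run, in tiles that had been chosen for little signal. Probes called lower (5) became 3 with the authors' values, 9 with a common floor, 2 with normexp, 11 with all probes in the percentile and 0 with a trend prior, and 9 to 40 without 1 array. Probes called higher (1) became 0 with the authors' values, 3 with a common floor, 4 with negative controls at 0 and 0 with normexp. Over all 47900 probes, 759 were called lower in the main setting, 726 with a common floor and 982 with normexp. They were 1135 with all probes in the percentile and 623 with a trend prior. Those called higher numbered 5138 in the main setting, 3498 with a common floor, 4871 with negative controls at 0 and 2931 with normexp. With the authors' values, 765 of 41539 were lower and 3912 higher.

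The change of the Irf4 tile was -0.070 with negative controls at 0 (adjusted p = 0.761) and -0.49 to -0.43 without 1 array. It kept its call at -0.30 with a common floor (adjusted p = 0.0290), -0.15 with normexp (adjusted p = 0.0336) and -0.84 with all probes in the percentile (adjusted p = 0.00135). Under these settings the median change over the 39 tiles was -0.29, -0.18 and -0.76, with 21, 22 and 28 tiles called lower. That of the chromosome 14 tile was -0.14 with a common floor (adjusted p = 0.221), -0.39 with the median over probes (adjusted p = 0.0670), -0.10 with normexp (adjusted p = 0.106), -0.76 with all probes in the percentile (adjusted p = 0.00151, call kept) and -0.46 to -0.29 without 1 array. With negative controls at 0 it reversed to 0.017. Without the bright block, an alternative chosen after seeing the data, it was -0.36 (adjusted p = 0.0345). Of 221 window values under alternatives, 154 kept direction and call, 38 gained and 20 lost a call and 9 turned sign. With negative controls at 0 the windows that turned were those from 30855001 (0.11), 46680001 (0.033), 46685001 (0.073), 46690001 (0.075), 46700001 (0.063) and 46720001 (0.11). With medians over probes 46685001 (0.036) and 46700001 (0.31) turned, and without dim probes 30855001 (0.13). For the other changes the cause was not tested.

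The labels number the replicates but do not say whether equal numbers pair the samples. Deviations of same-numbered arrays correlated at -0.03 over 47900 probes and 0.01 over the 743. With 2 arrays per group, these values cannot decide whether the samples were paired. With the replicate block, 1 window of the Irf4 tile and 0 of the chromosome 14 tile were called lower, as was 1 probe. Over the whole array this setting called 144 of 964 windows and 409 of 47900 probes lower.

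Shares of marked probes depended on the mark. With the program's weaker mark (signal positive and significant) they were 62.5% in ESC and 59.4% in NPC for Irf4, and 40.8% and 42.3% for chromosome 14. Against the 99th percentile of negative controls they were 32.3% in ESC and 37.2% in NPC for Irf4, and 18.4% and 25.4% for chromosome 14. The NPC arrays differed under this mark. For Irf4, NPC 1 and NPC 2 had 43.2% and 31.2%, beside 33.7% and 30.8% in ESC 1 and ESC 2, so the groups overlapped. For chromosome 14, NPC 1 and NPC 2 had 30.1% and 20.8%, beside 19.6% and 17.2% in ESC 1 and ESC 2. Runs of at least 2 probes numbered 18 in each group for Irf4 and 6 in each for chromosome 14. Runs of at least 5 numbered 2 in ESC and 1 in NPC for Irf4. Marks from the negative controls gave 7 runs in NPC for Irf4 and 2 for chromosome 14. The authors' table has no value for 20.8% of the Irf4 probes and 39.3% of the chromosome 14 probes, against 13.7% of the others. Probes at the floor carry no order, which limits every mean of these tiles.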
